A study of Mus musculus with 12 samples.

Results

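The serotonin receptor family was read from 17 probe sets of 9 genes, among 45101 probe sets on the array. The genes are Htr1a, Htr1b, Htr1d, Htr1f, Htr2b, Htr2c, Htr3a, Htr5a and Htr7, and each probe set was taken because the probe table gives it one of these symbols. Htr2a, the last of the 10 listed genes, was not analysed here. E12.5 mouse neural tubes bearing ePet-EYFP supplied the cells. In this transgene the yellow fluorescent protein, YFP below, is under a Pet-1 enhancer that is active in serotonin neurons. All embryos carried it, so that the groups differ by sort and by domain and not by genotype. R+ and R- are the YFP-positive and YFP-negative cells of the rostral domain, and C+ and C- are the YFP-positive and YFP-negative cells of the caudal domain; the domains were cut out at the mesencephalic flexure, the pontine flexure and the spinal cord. Each group had 3 arrays, called biological replicates in the labels, with RNA of 200000 sorted cells on each. YFP marks the cells in which the enhancer is active at this stage, and the YFP-negative cells are a mixture of every other cell type in the tissue.

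Serotonin receptors translate serotonin outside the cell into signals inside it. Most are coupled to G proteins: Htr1a, Htr1b, Htr1d, Htr1f and Htr5a to the inhibitory Gi/o class, Htr2a, Htr2b and Htr2c to the Gq class and Htr7 to the stimulatory Gs class, whereas Htr3a is a subunit of a cation channel that serotonin opens. On serotonin neurons Htr1a on the cell body and dendrites and Htr1b and Htr1d on axon endings act as autoreceptors, which lower firing and serotonin release in the adult brain.

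Values are MAS5 signals, a linear measure of hybridization in which arrays had been scaled to one level, and n = 3 arrays per group throughout. As a guide to what can be read, the signals of 80 probe sets for olfactory and vomeronasal receptors, taken as genes little used in the neural tube, were pooled over the 12 arrays, and their 95th percentile was 120.05. A probe set is called readable in a group if all 3 arrays lie above that level. Each difference, the group named first minus the other, is given ± SE after taking log2(signal + 10), and comes from limma's moderated test over the 26061 probe sets with 3 or more arrays above 107, the median of the whole data set. Of the 17 receptor probe sets 9 passed this filter, from 7 genes. A probe set counts as past the test at a Benjamini-Hochberg adjusted p below 0.05 over all 26061. Each array holds RNA of many cells, so fewer cells that express a receptor and less receptor RNA per cell cannot be told apart. The replicates are not said to come from separate litters, and p-values then measure only the spread between these arrays.

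The promoters of the 3 genes with a probe set past the test, Htr1a, Htr1b and Htr2c, are shown because these receptors separated the sorted groups. The sequences are RefSeq's on GRCm38.p6, 250 bases before to 50 bases after the start site. Capitals mark GGAA, the core that ETS factors such as Pet-1 recognise, and GATA, the core for Gata2 and Gata3, on either strand.
Htr1a promoter, chr13:105443443-105443742, plus strand: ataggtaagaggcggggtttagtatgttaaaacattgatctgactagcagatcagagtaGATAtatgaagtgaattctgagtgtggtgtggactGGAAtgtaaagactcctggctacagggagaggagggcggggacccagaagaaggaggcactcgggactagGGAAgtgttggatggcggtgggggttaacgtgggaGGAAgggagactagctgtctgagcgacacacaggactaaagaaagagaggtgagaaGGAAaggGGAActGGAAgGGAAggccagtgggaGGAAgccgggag
Htr1b promoter, chr9:81633783-81634082, minus strand: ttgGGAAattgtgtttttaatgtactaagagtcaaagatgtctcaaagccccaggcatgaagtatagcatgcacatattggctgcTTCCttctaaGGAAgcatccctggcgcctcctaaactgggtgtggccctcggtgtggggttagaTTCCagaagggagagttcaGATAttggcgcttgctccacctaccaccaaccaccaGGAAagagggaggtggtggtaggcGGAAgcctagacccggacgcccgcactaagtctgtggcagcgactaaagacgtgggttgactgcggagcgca
Htr2c promoter, chrX:146962263-146962562, plus strand: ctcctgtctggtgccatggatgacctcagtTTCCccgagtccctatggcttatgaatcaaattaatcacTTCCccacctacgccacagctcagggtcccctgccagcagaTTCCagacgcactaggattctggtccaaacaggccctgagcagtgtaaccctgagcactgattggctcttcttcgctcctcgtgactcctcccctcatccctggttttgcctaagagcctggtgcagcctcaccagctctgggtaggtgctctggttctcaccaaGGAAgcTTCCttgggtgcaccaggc
GGAA was found 8 times in the Htr1a window, 6 times in that of Htr1b and 5 times in that of Htr2c, with no overlap between the motifs searched. Of all 32851 RefSeq promoter windows, 96% held it, with a median of 3 matches. GATA was found 1 time each in the Htr1a and Htr1b windows and 0 times in that of Htr2c, against 57.9% of all windows with a match. The homeodomain core TAATTA was in 0 of the 3 windows and in 5.29% of all windows. A match describes letters only, and nothing about binding follows from it.

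The sorted groups carried the labelled identity. Tph2, which makes serotonin in neurons, averaged 6211 ± 605 in R+, against 46 ± 32.9 in R-, and 2193 ± 296 in C+, against 25.7 ± 13.3 in C- (± SD). Of 12 listed serotonergic identity genes 11 had a kept probe set, and all 11 passed higher in R+ than in R- and higher in C+ than in C-. The median signal of an array lay between 93 and 121. The beta-actin control ratio of 3' over 5' signal, a gauge of RNA integrity and copying, ranged over 2.64 to 4.39 for the rostral groups (6 arrays), with 4.52 to 7.69 for the caudal ones (6 arrays), so that this measure and the dissected domain moved together. The same ratio for Gapdh was 1.18 to 1.69 in R+, 1.15 to 2.14 in R-, 1.60 to 4.63 in C+ and 1.54 to 2.50 in C-. The part of the Gapdh ratio in the results was not tested. Markers of other neurons and of progenitors moved with YFP. All 8 glutamate and GABA neuron genes were lower in R+ than in R-, and 7 of 8 lower in C+ than in C-. Of 11 progenitor and cell cycle genes 10 were lower in each YFP-positive group. Not every cell type did so: of 8 macrophage and microglia genes 1 was higher and 0 lower in R+ than in R-. In C+ against C- 0 of these 8 were higher and 1 lower. The neuron genes summed to 2252 to 3046 in R+ and 23954 to 29336 in R-, and to 4334 to 5316 in C+ and 22983 to 27632 in C-. Their part in the receptor results was not tested.

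Htr1a and Htr1b, both Gi/o-coupled autoreceptors, were higher in YFP-positive than in YFP-negative cells of both domains, and Htr2c was higher in C+ than in any other group. In each of these genes this holds for 1 of 2 probe sets. The rostral Htr1b difference and the Htr2c differences lost their call under some alternatives, as given below. C+ was tested against C- and against R+ but not against R-. Htr3a and the second Htr1b probe set were readable without a difference past the test. Htr7 was readable in C+ with overlapping groups, and Htr1d, Htr1f, Htr2b and Htr5a were too dim to read in every group. Of the 17 probe sets R+ had 3 that were readable, R- had 2, C+ had 6 and C- had 2. Of the 45037 non-control probe sets, R+ passed the same rule with 40.4%, R- with 40.9%, C+ with 39.8% and C- with 40.6%.

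**Figure D1:**
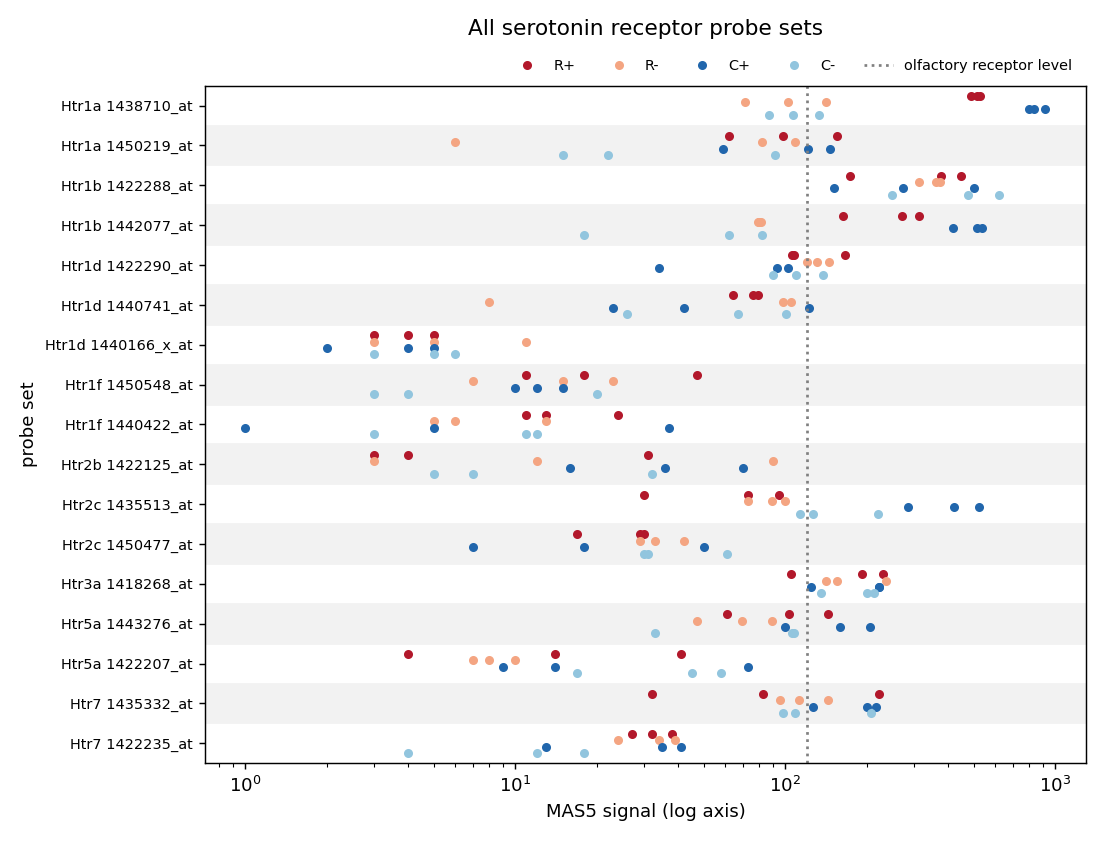
MAS5 signal on a log axis of all 17 receptor probe sets on the 12 arrays, coloured by group, with a dotted line at 120.05, the level set from olfactory and vomeronasal receptors. A probe set is readable in a group where all 3 points of that group lie to the right of the line, and the 8 probe sets below the filter have 1 of 96 points there.

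The inhibitory receptor Htr1a had the clearest pattern of the family. Its probe set 1438710_at, which the probe table ties to an expressed sequence tag, had signals of 512, 486 and 525 on the R+ arrays, against 71, 141 and 102 on the R- arrays. It reached 831, 799 and 920 on the C+ arrays, against 107, 87 and 133 on the C- arrays. Every YFP-positive array was above every YFP-negative array, and the C+ arrays all lay above the R+ arrays. The YFP-negative arrays lay around the olfactory receptor level, with 1 R- and 1 C- array above it, so that the differences below rest partly on dim signals. The log2 difference was 2.22 ± 0.24 for R+ against R- (limma adjusted p = 4.72e-05) and 2.87 ± 0.24 for C+ against C- (limma adjusted p = 3.62e-06). Within replicate numbers 1 to 3 it was 1.72 to 2.69 rostrally and 2.70 to 3.06 caudally.

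Between the YFP-positive groups Htr1a was lower in R+ than in C+ by less than the test could call. The log2 difference for R+ against C+ was -0.73 ± 0.24 (limma adjusted p = 0.11), and -0.69, -0.71 and -0.80 within replicates 1, 2 and 3. With the replicate number as a block the adjusted p was 0.0394, past the threshold. With the beta-actin ratio as a covariate the difference was -0.22 (limma adjusted p = 0.818), and the part of that ratio in the result was not tested further. Between the YFP-negative groups R- and C- the difference was -0.08 ± 0.24 (limma adjusted p = 0.938).

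The second Htr1a probe set, 1450219_at, which is tied to the RefSeq transcript, was dim. It gave 98, 156 and 62 in R+, against 6, 82 and 109 in R-, and 121, 147 and 59 in C+, against 15, 22 and 92 in C-. It was above the olfactory receptor level on 3 of 12 arrays, and its groups overlapped. The log2 difference was 0.96 ± 0.77 for R+ against R- (limma adjusted p = 0.624) and 1.37 ± 0.77 for C+ against C- (limma adjusted p = 0.374). Over the 12 arrays the 2 probe sets of Htr1a correlated at r = 0.63, a description of arrays that share groups.

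For Htr1b, the receptor on axon endings, both probe sets were readable and they disagreed. Probe set 1442077_at, tied to an expressed sequence tag, had signals of 163, 312 and 271 in R+, against 81, 79 and 80 in R-. Its signals were 419, 514 and 536 in C+, against 62, 18 and 82 in C-. All YFP-positive arrays exceeded the olfactory receptor level and all YFP-negative arrays lay below it. The log2 difference was 3.12 ± 0.40 for C+ against C- (limma adjusted p = 0.000157) and 1.47 ± 0.40 for R+ against R- (limma adjusted p = 0.0361). Since the YFP-negative groups were below the level, the bound is an at least 3.82-fold higher signal in C+ than in C- and an at least 1.92-fold higher signal in R+ than in R-, taking each dim array at the level.

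The caudal difference of this Htr1b probe set stayed past the threshold without any single array. The rostral difference did not: its adjusted p was 0.0581 with an offset of 1, 0.0628 without a filter and 0.00334 to 0.318 over 26 alternatives, and it was lost without R+ replicate 2 or 3, any R- replicate, or C+ replicate 2 or 3. R+ was below C+ in each replicate number, by -1.31, -0.70 and -0.96, which did not pass (-0.99 ± 0.40, limma adjusted p = 0.188), and over the alternatives the difference ran from -1.17 to 0.39. The difference of the rostral and caudal enrichments was -1.65 ± 0.56 (limma adjusted p = 0.493).

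The other Htr1b probe set, 1422288_at, tied to the RefSeq transcript, was above the level on all 12 arrays and did not follow the sort. It gave 174, 376 and 449 in R+, against 314, 375 and 361 in R-, and 152, 501 and 274 in C+, against 248, 477 and 618 in C-. All 4 groups overlapped, and the replicate 1 array was the lowest of each group. The log2 difference was -0.17 ± 0.43 for R+ against R- (limma adjusted p = 0.918, 95% interval -1.10 to 0.76) and -0.58 ± 0.43 for C+ against C- (limma adjusted p = 0.534, interval -1.51 to 0.35). The interval for C+ against C- excludes the caudal difference seen with the other probe set. For R+ against R- the intervals of the 2 probe sets overlap, that of 1442077_at being 0.62 to 2.33. The correlation of the 2 probe sets over the 12 arrays was r = -0.26. Where each probe set lies on the Htr1b transcript was not analysed here. When one probe set stands for each gene, the brighter 1422288_at is taken, and Htr1b then has no difference past the test.

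**Figure D2:**
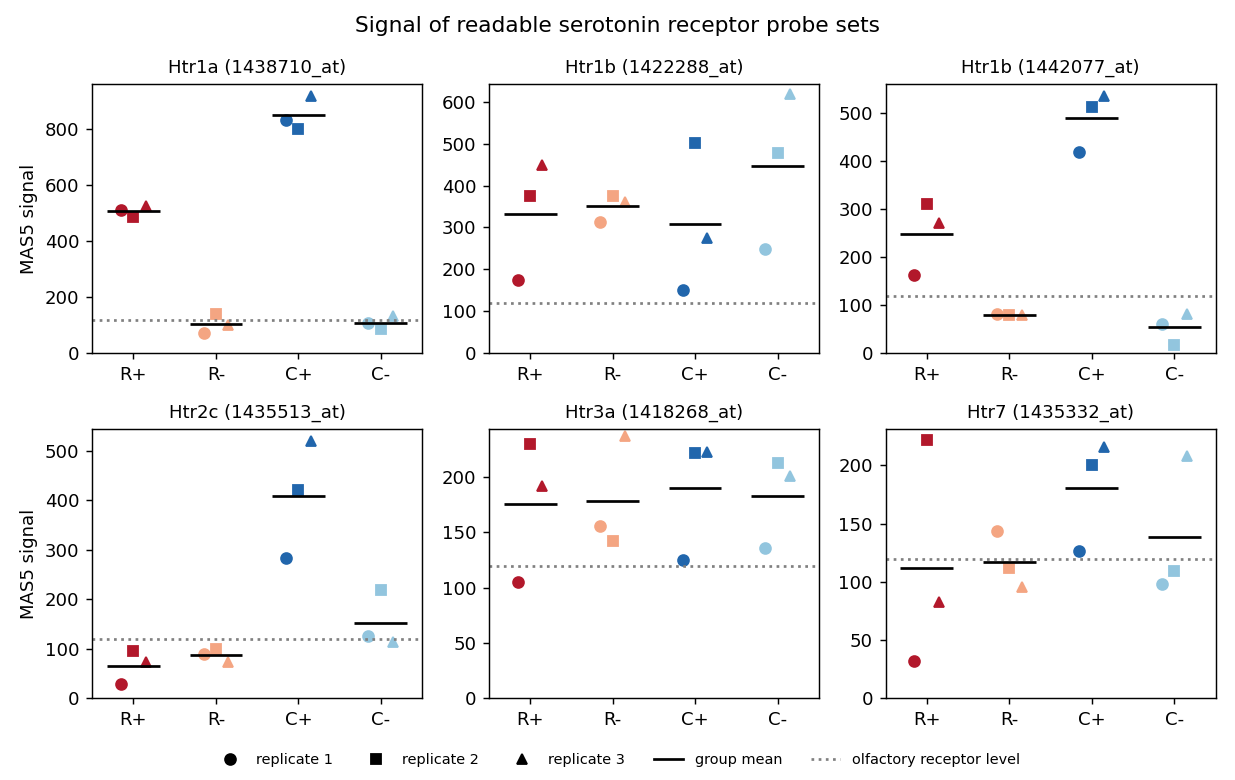
MAS5 signal of the 6 probe sets readable in at least 1 group, each point an array (marker by replicate number), bars the mean of 3 arrays, dotted line the olfactory receptor level of 120.05. Htr1a 1438710_at and Htr1b 1442077_at are high in R+ and C+, Htr2c 1435513_at in C+, and the groups of the other 3 probe sets overlap.

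Htr1d, another Gi/o-coupled receptor of axon endings, was at the edge of what the array can read. Its brightest probe set, 1422290_at, had 106, 166 and 108 in R+, 131, 145 and 120 in R-, 34, 102 and 93 in C+ and 90, 110 and 138 in C-. It lay above the olfactory receptor level on 4 of 12 arrays. No comparison passed, with 0.75 ± 0.39 for R+ against C+ as the largest difference of the 4 pairwise comparisons (limma adjusted p = 0.319). Its other probe sets, 1440741_at and 1440166_x_at, ranged over 8 to 122 and 2 to 11. Htr1f, also Gi/o-coupled, ranged over 3 to 47 and 1 to 37 in its 2 probe sets, all below the level.

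Htr5a, a further Gi/o-coupled receptor, was readable in no group. Probe set 1443276_at gave 61, 144 and 103 in R+, 47, 69 and 89 in R-, 100, 206 and 160 in C+ and 33, 108 and 106 in C-. In each replicate number the YFP-positive array was above the YFP-negative array of its domain, by 0.19 to 0.96 rostrally and 0.55 to 1.36 caudally. The groups overlapped. Neither comparison passed, with 0.49 ± 0.48 for R+ against R- (limma adjusted p = 0.718) and 0.93 ± 0.48 for C+ against C- (limma adjusted p = 0.328). The second probe set, 1422207_at, lay at 4 to 73.

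Htr2c, the Gq-coupled receptor best known from choroid plexus and from neurons, was readable in C+ alone among the 4 groups. Probe set 1435513_at had signals of 284, 421 and 520 on the C+ arrays, against 127, 220 and 113 on the C- arrays. It had 30, 95 and 73 on the R+ arrays, and 89, 100 and 73 on the R- arrays. The C+ arrays lay above all other arrays, both rostral groups were below the olfactory receptor level throughout, and C- straddled it. The log2 difference for R+ against C+ was -2.53 ± 0.39 (limma adjusted p = 0.00246), and the signal was at least 3.13-fold higher in C+ than in R+ when R+ is taken at the level. The difference for C+ against C- was 1.37 ± 0.39 (limma adjusted p = 0.0472), and that for R+ against R- was -0.46 ± 0.39 (limma adjusted p = 0.657).

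Whether the Htr2c difference between YFP-positive and YFP-negative cells itself differed between domains was tested as the difference of differences, which was -1.83 ± 0.55 (limma adjusted p = 0.34, unadjusted p = 0.00554). With the replicate block its adjusted p was 0.0727. The R+ against C+ difference was -2.88, -2.04 and -2.68 within replicates 1, 2 and 3. With the beta-actin ratio as a covariate it was -2.12 ± 0.58 and the adjusted p was 0.136. That ratio moves with the domain, and its part in the result was not tested further. Without the 4 arrays of replicate 2, or of replicate 3, it was -2.78 and -2.46 and did not pass (limma adjusted p = 0.0614 and 0.14). The C+ against C- difference ranged from 1.00 to 1.65 over 27 alternatives, with adjusted p from 0.00971 to 0.561, and passed in 14 of them. Leaving out any 1 of C+ replicate 2 or 3, C- replicate 1 or 3, R+ replicate 3 or any R- replicate ended that call.

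The second Htr2c probe set, 1450477_at, tied to the RefSeq transcript, was at 7 to 61 on the 12 arrays and below the filter. Choroid plexus genes were not higher in C+ than in C-. Ttr, the thyroid hormone carrier that choroid plexus makes in quantity, was 1359 ± 774 in C+ and 4226 ± 2303 in C- (± SD). The summed signal of 9 listed choroid plexus and roof plate genes was 1515 to 2699 on the C+ arrays and 3369 to 7807 on the C- arrays, and Folr1, Otx2, Kl, Kcne2, Lmx1a and Aqp1 were below the level on all C+ arrays. Between the YFP-positive groups Ttr was 254 ± 172 in R+ and 1359 ± 774 in C+ (-2.57 ± 0.59, limma adjusted p = 0.0286), and so moved with Htr2c there. Otx2 of the same list went the other way, at 186 ± 90.8 in R+ and 20.0 ± 6.56 in C+ (2.64 ± 0.54, limma adjusted p = 0.0151). Other Ttr probe sets gave -2.43, -3.20 and -3.24 for R+ against C+ (limma adjusted p = 0.0814, 0.0134 and 0.0484). Of the 6 measured genes of that list 1 was higher and 1 lower in R+ than in C+, with a median difference of 0.06. The summed signal of the 9 listed genes was 765 to 1451 on the R+ arrays, below the 1515 to 2699 of the C+ arrays. Genes of mesenchyme, meninges and pericytes, 12 in all, summed to 941 to 1310 in R+, 3742 to 3851 in C+ and 4055 to 5021 in C-, and 4 of them (Col1a1, Lum, Twist1 and Tbx18) were below the level on all C+ arrays. Dcn, a matrix proteoglycan of that list, was 116 ± 46.1 in R+, 2345 ± 159 in C+ and 417 ± 111 in C-. It thus moved with Htr2c in R+ against C+ (-4.28 ± 0.29, limma adjusted p = 2.1e-06) and in C+ against C- (2.50 ± 0.29, limma adjusted p = 8.56e-05). Of the 9 measured genes of that list, 0 were higher and 1, Dcn, was lower in R+ than in C+, with a median difference of -0.44. The summed signal given above was also lower in R+ than in C+. In C+ against C- 1, again Dcn, was higher and 4 were lower, with a median difference of -1.15. The part of these cells in the Htr2c result was not tested.

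The remaining Gq-coupled member on the array, Htr2b, had a single probe set with signals of 3 to 90, all below the level.

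The channel subunit Htr3a was at much the same level everywhere. Its probe set 1418268_at had signals of 105, 230 and 192 in R+, 156, 142 and 237 in R-, 125, 222 and 223 in C+ and 136, 213 and 201 in C-. It exceeded the level on 11 of 12 arrays, the exception being R+ replicate 1, and all groups overlapped. The log2 differences were -0.05 ± 0.34 for R+ against R- (95% interval -0.79 to 0.68) and 0.03 ± 0.34 for C+ against C- (interval -0.71 to 0.76). Neither difference passed (limma adjusted p = 0.971 and 0.981), and changes inside these intervals could not be detected.

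The Gs-coupled Htr7 was readable in C+ only as its lowest array was just above the level. Probe set 1435332_at had 32, 222 and 83 in R+, 144, 112 and 96 in R-, 127, 200 and 216 in C+ and 98, 109 and 208 in C-. The R+ arrays held both the lowest and the highest of the 12 signals, and all groups overlapped. R+ against C+ gave -0.95 ± 0.52 (limma adjusted p = 0.344) and C+ against C- gave 0.40 ± 0.52 (limma adjusted p = 0.753). The other Htr7 probe set, 1422235_at, was at 4 to 41.

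Taken as a family, 2 of the 9 tested probe sets were higher in R+ than in R- and 0 lower, and 3 were higher in C+ than in C- and 0 lower. Of all 26061 tested probe sets 2.79% were higher in R+ and 3.56% higher in C+, and 7.67% and 8.2% passed in either direction. The members passed the filter partly through the groups in which they were high, so these counts are a description. For R+ against C+, 1 of 9 was lower in R+, against 2.39% of all tested probe sets (3.78% in either direction), and 2 of 9 with the replicate block, against 8.41%. For R- against C- limma called 0 of 9 (0 at an unadjusted p under 0.05), with 1.49% called in all. For the difference of differences it called 0 of 9 (2 at an unadjusted p under 0.05), with 0.522% called in all. The median difference of the 9 was -0.05 for R+ against R-, 0.93 for C+ against C- and -0.57 for R+ against C+, beside 0.02, -0.02 and -0.01 over all tested probe sets. The values 0.93 and -0.57 are those of Htr5a 1443276_at, which was readable in no group. With one probe set for each of the 7 genes the medians were -0.08, 0.40 and -0.57. These medians, like the counts, are a description.

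**Figure D3:**
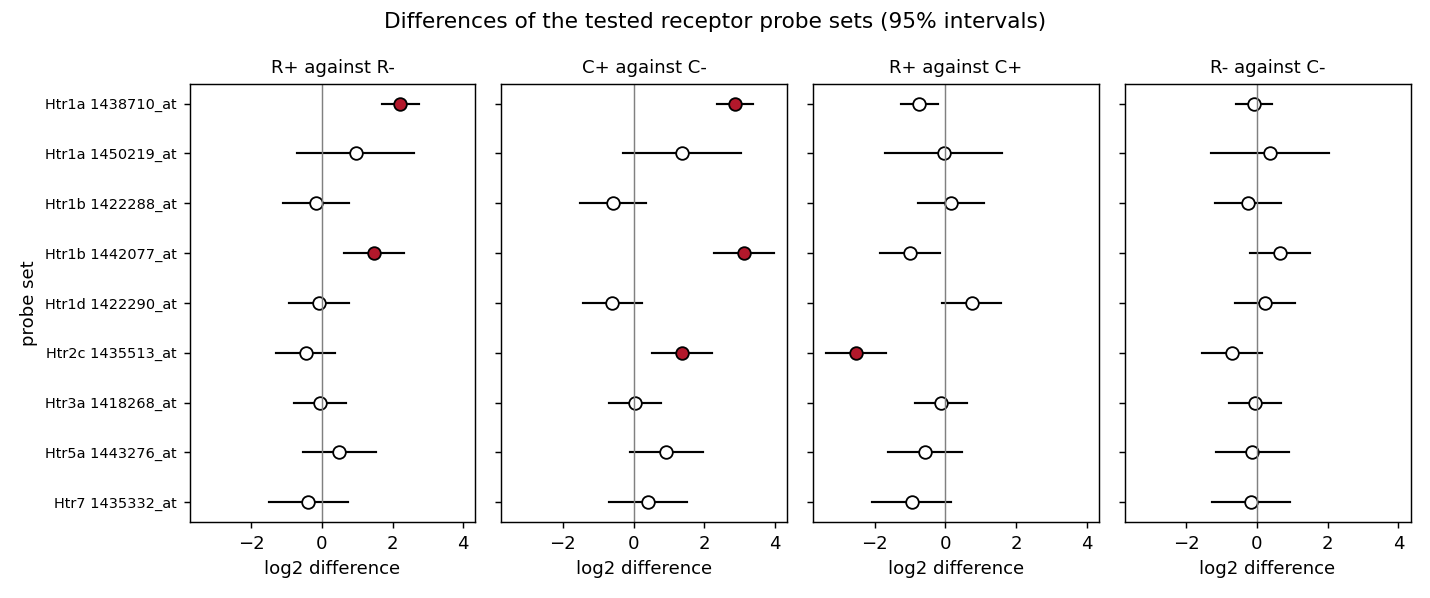
Log2 differences with 95% intervals of the 9 tested receptor probe sets in the 4 pairwise comparisons, the first-named group minus the second; red points have an adjusted p below 0.05. Red points stand for Htr1a and Htr1b in both comparisons by YFP, and for Htr2c when C+ is set beside C- or R+.

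The 8 receptor probe sets below the filter had signals of 1 to 122 with a median of 15.5, and 1 of their 96 values was above the olfactory receptor level. Fitted without the filter, limma called 0 of the 8 in each of the 5 comparisons, with 2 at an unadjusted p under 0.05 for R- against C- and 0 for the others. A low signal here says that the receptor could not be read and not that it was absent. Htr3b, Htr5b and Htr6, which are no members of the set, had no kept probe set either. Their summed signal ranged over 82 to 147 (R+), 111 to 192 (R-), 120 to 151 (C+) and 122 to 259 (C-).

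The genes whose pattern over the 12 arrays was most like that of each called member were sought among 7328 genes with a mean signal of at least 450, by Pearson's r on the log2(signal + 10) scale. Htr1a 1438710_at was most like Nr3c1, the glucocorticoid receptor (r = 0.99), Cacna2d1, an auxiliary calcium channel subunit (r = 0.98), and Slc25a12, a mitochondrial aspartate and glutamate carrier (r = 0.98). Nr3c1 averaged 678 ± 49.7 in R+, against 70.3 ± 33.6 in R-, and 2163 ± 184 in C+ and 61.7 ± 5.03 in C-. Htr1b 1442077_at was most like Cacng8, Mcoln1 and Nr3c1 (r = 0.95, 0.95 and 0.94). Htr2c 1435513_at was most like Mterf3, Zranb2 and Inpp5f (r = 0.96, 0.96 and 0.95). These correlations rest on 12 arrays in 4 groups and describe these arrays only.

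Downstream of the inhibitory receptors, several G protein subunits were higher in YFP-positive cells. Of 23 measured G protein subunit genes 5 were higher and 2 lower in R+ than in R-, and 5 were higher and 1 lower in C+ than in C- (10 and 1 with the replicate block). The median difference of the list was 0.21 rostrally and 0.31 caudally, beside 0.02 and -0.02 over all tested probe sets. Of all tested probe sets 2.79% were higher in R+ than in R- and 3.56% higher in C+ than in C-. In either direction 7.67% and 8.2% passed. These shares also stand beside the counts of effectors, RGS proteins and partners below. They are over all tested probe sets, dim ones included, whereas a list gene is counted by its brightest kept probe set. With the block, calls rose over all tested probe sets too, as from 2.39% to 8.41% for lower in R+ than in C+. Shares with the block for the comparisons by YFP are not given here. Gnai1, an inhibitory alpha subunit, was 4163 ± 702 in R+ and 1961 ± 280 in R- (1.08 ± 0.22, limma adjusted p = 0.00641), and rose by 1.31 ± 0.22 in C+ over C- (limma adjusted p = 0.00145). Gnaz, an alpha subunit of the same class, differed by 1.25 ± 0.28 in both comparisons. The gamma subunit Gng4 was 4118 ± 560.5 in R+ and 1177 ± 162 in R-, and 6751 ± 1215 in C+ and 1078 ± 229 in C- (1.80 ± 0.19 and 2.64 ± 0.19, limma adjusted p = 3.58e-05 and 9.25e-07). The beta subunit Gnb4 differed by 0.82 ± 0.18 and 1.13 ± 0.18, while another of its probe sets gave 0.50 ± 0.21 and 0.46 ± 0.21 without passing, and the remaining one gave 1.05 ± 0.33, which did not pass, and 1.38 ± 0.33, which did (limma adjusted p = 0.0743 and 0.0173). Gng11 was lower in both YFP-positive groups, by -1.06 ± 0.23 and -1.37 ± 0.23.

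Among effectors, 3 of 20 measured genes were higher and 1 lower in R+ than in R- (7 and 1 with the block), and 3 were higher and 2 lower in C+ than in C- (6 and 4 with the block). Prkar1b, a regulatory subunit of the cyclic AMP-dependent kinase, was 4608 ± 142 in R+ and 2143 ± 145 in R-, and 5594 ± 155 in C+ and 2570 ± 146 in C-. Of its other 4 probe sets 2 passed in both comparisons, and 2 passed in neither (1.05 and 0.45 rostrally, 0.83 and 0.31 caudally). Plcb1, a phospholipase C that Gq activates, was lower in both YFP-positive groups (-1.26 ± 0.26 and -1.05 ± 0.26), although another of its probe sets gave -0.49 ± 0.38 and -0.23 ± 0.38 without passing. Of the potassium channel subunits that Gi/o-coupled receptors open, Kcnj5 was 210 ± 70.7 in C+ and 22.3 ± 15.04 in C-, at least 1.64-fold higher in C+ (2.86 ± 0.66, limma adjusted p = 0.0145). Kcnj5 was below the level in R+ and in R-. Kcnj3 and Kcnj6 did not pass in either comparison by YFP.

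RGS proteins, which shorten G protein signals, were lower in 5 of 15 measured cases in R+ than in R- and in 4 of 15 in C+ than in C-, with 0 higher in both. With the replicate block the counts were 5 lower and 1 higher in each comparison, the higher one being Rgs17 (0.65 and 0.52, block adjusted p = 0.00764 and 0.0271). Another Rgs17 probe set was higher in R+ than in R- without the block (0.76 ± 0.21, limma adjusted p = 0.0462). In C+ against C- that probe set did not pass (0.60 ± 0.21, limma adjusted p = 0.121). Rgs16 was 288 ± 56.4 in R+ and 1355 ± 482 in R-, and 264 ± 125 in C+ and 2072 ± 555 in C- (-2.15 ± 0.36 and -3.03 ± 0.36, limma adjusted p = 0.00153 and 8.54e-05). Rgs8 differed by -1.44 ± 0.22 and -2.16 ± 0.22, and Rgs4 by -2.80 ± 0.49 and -2.44 ± 0.49, with another Rgs4 probe set at -2.61 ± 0.71 and at -1.26 ± 0.71, the second of which did not pass. Rgs5, also a marker of pericytes, was lower in both (-1.33 ± 0.21 and -1.90 ± 0.21), while its other probe set gave -0.86 ± 0.30 and -0.89 ± 0.30 without passing. The neuron and progenitor markers above were lower in the same groups, and their part in the RGS result was not tested.

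Among partners and regulators of the receptors, 1 of 14 measured genes was higher and 1 lower in each comparison by YFP. With the replicate block 2 were higher and 1 lower in each, the added ones being Dlg4 in R+ against R- (1.30, block adjusted p = 0.0308) and Cc2d1b in C+ against C- (1.04, block adjusted p = 0.0161). The one higher without the block was S100a10, an adaptor protein that binds Htr1b and raises its amount at the cell surface. It was 3662 ± 892 in R+ and 773 ± 164 in R-, and 6237 ± 1456 in C+ and 883 ± 115 in C- (2.22 ± 0.21 and 2.79 ± 0.21, limma adjusted p = 1.57e-05 and 1.73e-06). A second probe set passed in both comparisons, and the remaining one gave 1.72 ± 0.53 and 1.34 ± 0.53 without passing. The lower one was Hes5, a Notch target and progenitor marker, at -2.49 ± 0.25 and -3.13 ± 0.25. Cc2d1a and Deaf1, known as regulators of Htr1a, gave 0.61 and 0.24 rostrally and 0.64 and 0.37 caudally and did not pass.

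**Figure D4:**
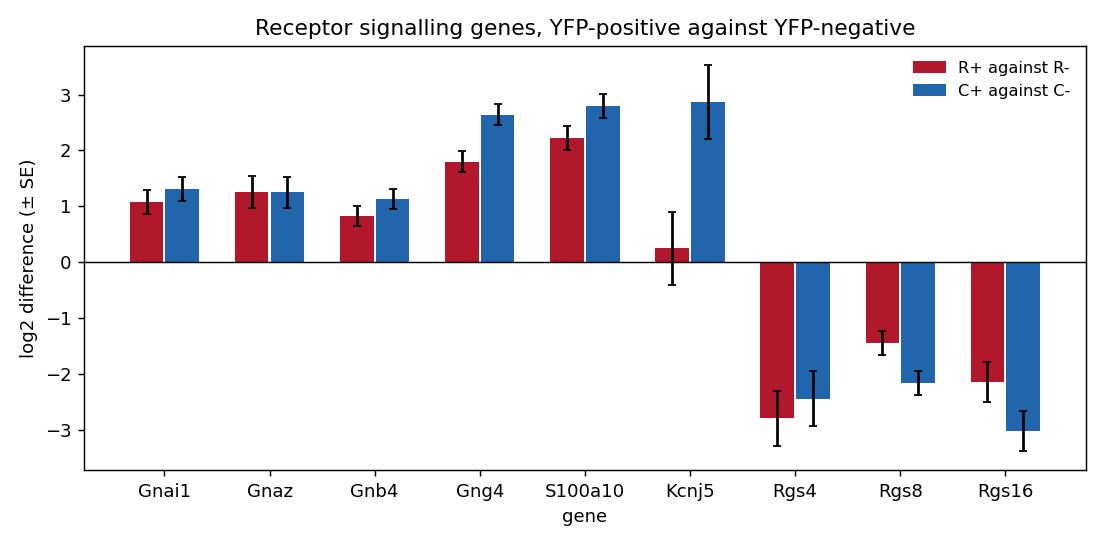
Log2 differences ± SE of 9 signalling genes for R+ against R- (red) and C+ against C- (blue). Bars above 0 are higher in YFP-positive cells, as for S100a10 at 2.22 and 2.79, and Rgs16 lies at -2.15 and -3.03; Kcnj5 was below the readable level in R+, R- and C-.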

How the data were processed

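RNA of sorted cells was hybridized to 12 Affymetrix Mouse 430 2.0 arrays, 3 per group. The authors deposited MAS5 signal intensity, linear and in whole numbers. MAS5 is named per the submitters' processing notes, without its settings. On every array the mean without the lowest and highest 2% was 500. No detection calls were used here. Of 45101 probe sets 64 controls were left out. The probe table gave 1 symbol to 34945, several to 932 and none to 9160; 34741 symbols were matched through Entrez numbers to RefSeq on GRCm38.p6, and 0 changed. All kept probe sets were fitted in limma 3.58.1 (R 4.3.3) on log2(signal + 10), 1 mean per group, eBayes with a trend, 5 contrasts, two-sided, Benjamini-Hochberg over 26061. This fit over probe sets gives each receptor probe set its own value. The procedure was also run on simulated data with independent noise on each array. Such data lack any correlation between same-numbered arrays, so the run cannot show how that correlation affects the calls.

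Named genes were all receptor probe sets, members of the signalling and marker lists, and the 3 genes most like each called member; a list gene stands by its brightest kept probe set. The members and lists were chosen with earlier results of these data known. The main fit had no block, and the replicate number was a block in alternatives. The labels do not say whether same-numbered arrays share litters. Deviations from group means correlated at 0.169 to 0.597 over 18 same-numbered pairs, and at -0.468 to 0.318 over 36 others. These ranges overlap, and the pairs of replicate 1 were the highest, at 0.417 to 0.597. C+ replicate 3 correlated at 0.318 with C- replicate 2 and at 0.218 with C- replicate 3, so a pairing is not established for every number. The number of arrays limits the precision. Alternatives changed the offset, filter, scaling, trend, block, covariate, probe set choice and arrays.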

Additional observations from a re-analysis of the deposited data

How the results depend on the processing

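Over 27 alternatives, the 9 tested receptor probe sets in 5 comparisons gave 1176 values, of which 1147 stayed on their side of the threshold, 28 lost a call, 1 gained one and 0 changed the sign of a called difference. Of 6 called differences, those of Htr1a 1438710_at in both comparisons by YFP and of Htr1b 1442077_at in C+ against C- passed under every alternative that held the probe set. The count for R+ against R- was 1 with an offset of 1, with no filter on low signals and with one probe set per gene; leaving out arrays gave 1 to 2. The count for R+ against C+ was 2 with the replicate block, which added Htr1a, 0 with the beta-actin ratio as a covariate and 0 with both; leaving out arrays gave 0 to 1. The count for C+ against C- was 2 or 3 throughout. Setting the readable level at the 90th percentile of the olfactory receptor signals raised the readable probe sets in R+ to 5. The block with the beta-actin ratio, and leaving out the 4 arrays of a replicate number, were chosen after seeing the data. Without replicate 2 and without replicate 3, Htr2c lost its call in R+ against C+ (-2.78 and -2.46, limma adjusted p = 0.0614 and 0.14), with 8 arrays left; the cause of the other losses was not tested. The replicate block changed no other member call. Dim signals limit 11 of the 17 probe sets, which were readable in no group.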

Other observations

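Adcy2, an adenylyl cyclase, differed between the domains in its relation to YFP. Its signal was 327 ± 13.8 in R+ and 186 ± 26.8 in R-, and 358 ± 87.7 in C+ and 558 ± 19.3 in C- (± SD). The difference was 0.79 ± 0.20 for R+ against R- (limma adjusted p = 0.026) and -0.65 ± 0.20 for C+ against C-, which did not pass (limma adjusted p = 0.0634) but did with the replicate block (adjusted p = 0.0152). The difference of differences was 1.44 ± 0.28 (limma adjusted p = 0.0374). The phospholipase C genes Plcb1 and Plcb4 were lower in the rostral than in the caudal domain whichever way cells were sorted. Plcb1 differed by -1.97 ± 0.26 for R+ against C+ and by -1.75 ± 0.26 for R- against C-, and Plcb4 by -0.72 and -0.94. All 4 passed, but a second Plcb1 probe set gave -0.82 and -0.56 and a second Plcb4 probe set 0.14 and 0.60, and none of these 4 passed.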
